A study of Mus musculus with 2 samples.

Results

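Gaps between neighbouring H3K4me1 regions that carried no EP300 peak were examined in melan-a, an immortalised melanocyte line of the mouse labelled as strain C57BL/6 Ink4a -/-. A gap qualified when it was 300 to 1200 bp wide and both regions beside it, its flanks, were at least 500 bp long. Of 6158 qualifying gaps among 59895 neighbouring pairs of regions, 2952 (47.9%, interval 46.7% to 49.2%) had no EP300 peak of either replicate within 1000 bp of the gap. A further 1424 gaps (23.1%, interval 22.1% to 24.2%) held the midpoint of an EP300 peak found in both replicate lists, and these served for comparison. The remaining 1782 gaps (28.9%) had an EP300 peak within 1000 bp without meeting that condition.

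Enhancers are stretches of DNA that raise transcription from promoters at a distance. The nucleosomes beside them carry histone H3 monomethylated at lysine 4 (H3K4me1), and the bound transcription factors sit in the accessible dip between the marked nucleosomes. EP300 is a histone acetyltransferase and coactivator that such factors recruit, and its binding is widely used to mark active enhancers, whereas H3K4me1 is also found at enhancers that are primed and not active, and on the shoulders of active promoters. A dip in H3K4me1 can thus be read together with, or apart from, the presence of EP300.

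The data were chromatin immunoprecipitation sequencing (ChIP-seq) of melan-a cells, for which no treatment is labelled, with an antibody to EP300 and with an antibody to H3K4me1, 1 sample each, and each sample stands for 2 replicates. Both samples thus describe the same line in culture, Ink4a -/- by its label. EP300 was deposited as 1 peak list per replicate, with 8451 peaks from 31439027 filtered tags in replicate 1 and 10351 peaks from 32355042 filtered tags in replicate 2, and H3K4me1 as 1 list of 59923 regions of unknown depth. The weakest listed EP300 peak had 21 tags in each list, so a gap without EP300 is a gap without a called peak, and binding below the authors' p-value threshold of 1e-05 is not in the lists. The gaps were chosen by the positions of the EP300 peaks of both lists and by the positions and lengths of the H3K4me1 regions. Shares and medians are therefore given as descriptions, with exact 95% intervals that cover counting error alone, and without tests, because gaps of 1 sample are not replicates of a condition. The labels do not state whether separate cultures gave the replicates.

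The share without EP300 was lower among qualifying gaps than in the H3K4me1 list at large. Against the 47.9% of qualifying gaps, gaps of 300 to 1200 bp with flanks of any length had no EP300 peak within 1000 bp in 62.3% of 15574 cases, and those with a flank under 500 bp in 71.6% of 9416 cases. Among single H3K4me1 regions the share was 75.1% of all 59923 regions and 65.6% of the 30808 regions of 500 bp or more. A region has another length than a gap, so these shares describe the list and are no matched comparison. Shared EP300 midpoints lay in 23.1% of qualifying gaps, against 13.2% of gaps with flanks of any length and 6.69% of those with a flank under 500 bp. No clear step was seen at the limit of 500 bp, where the intervals on either side overlapped. With a shorter flank of 450 bp, just outside the rule, 62.2% of 1042 gaps lacked EP300, and with one of 500 bp, just inside it, 58.9% of 905 did.

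The 2952 gaps without EP300 were bounded by 5561 different H3K4me1 regions, 9.28% of the list. Of these regions, 87 (1.56%) bounded a gap holding shared EP300 on their other side. Most of the regions had no qualifying gap there, since only 1035 pairs of qualifying gaps shared a flank. The 87 made up 8.41% of those pairs, and 23.1% of all qualifying gaps held shared EP300. The rule itself lowers this count, because no EP300 peak may lie within 1000 bp of a gap without EP300. From the outer edge of one flank to the outer edge of the other, gaps without EP300 spanned a median of 2400 bp (interval 2350 to 2450 bp, n = 2952), against 2750 bp (interval 2700 to 2800 bp, n = 1424) around gaps holding EP300. The gap itself made up 21.3% of the summed span without EP300 and 21.0% with it. The span includes the gap, whose width the rule ties to the classes, and the part of the rule in these values was not tested. Without the gap, the summed length of both flanks had a median of 1800 bp without EP300 and 2050 bp with it.

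**Figure D1:**
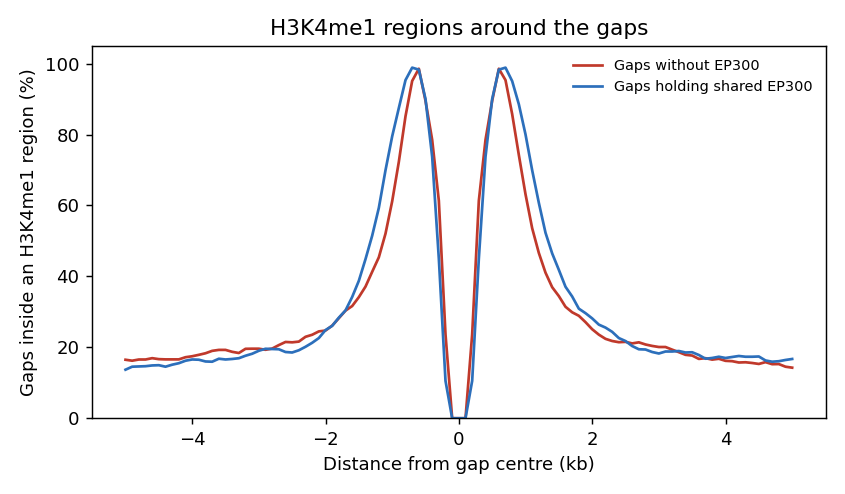
Share of gaps (y axis, percent) that lay inside an H3K4me1 region at each distance from the gap centre (x axis, kb), for the 2952 gaps without EP300 (red) and the 1424 gaps holding shared EP300 (blue). Both curves are at 0 in the centre by construction, and at 900 bp to the right the share was 74.3% without EP300 and 88.6% with it.

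The plot of H3K4me1 around the gaps shows the difference in extent. At 300 bp from the centre, 61.3% of gaps without EP300 were already inside a flank, compared with 45.0% of gaps holding EP300. At 600 bp, where the width limits force a flank at nearly all gaps, the shares were 98.6% and 98.3%. At 1200 bp to the right they were 46.6% without EP300 and 60.7% with it. The dip was thus narrower and its shoulders ended sooner where EP300 was not called. The rule favours wider gaps among those holding EP300, and its part in this was not tested.

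Flanking H3K4me1 was weaker beside gaps without EP300. The weaker flank had a median percentile rank of 64.2 (interval 63.2 to 64.9), where 100 is the best-ranked of all H3K4me1 regions, against 74.9 (interval 73.9 to 76.2) beside gaps holding EP300. Gaps with EP300 merely nearby lay between them, at 70.1 (interval 69.0 to 71.6). The stronger flank had median percentiles of 86.2 without EP300, 89.6 with EP300 nearby and 92.7 in gaps holding it. The classes overlapped widely: the middle 50% of weaker flanks ran from 50.2 to 77.5 without EP300 and from 61.2 to 87.4 with it.

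Other values of the authors' list showed the same order. The maximum log2 fold change of the weaker flank had a median of 3.89 (interval 3.88 to 3.90) without EP300 and 4.07 (interval 4.04 to 4.09) with it. The score by which the regions are ranked had medians of 3.48 and 3.61 in the same order. Both flanks reached the highest deposited -log10 p-value of 100 at 56.8% (interval 55.0% to 58.6%) of gaps without EP300 and at 89.6% (interval 87.9% to 91.1%) of gaps holding it. The shorter flank had a median length of 650 bp without EP300 and 800 bp with it. The rank, the p-value and the length describe the same regions, so these are not independent findings. How closely they go together was not measured.

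The flanks of gaps without EP300 were also less alike in rank. The percentile ranks of the flanks differed by a median of 16.2 (interval 15.4 to 17.0) without EP300, against 12.4 (interval 11.2 to 13.3) with it. In length they were equally uneven, with a median ratio of the longer to the shorter flank of 1.50 in each class. The percentile stops at 100, and its part in the difference was not tested.

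**Figure D2:**
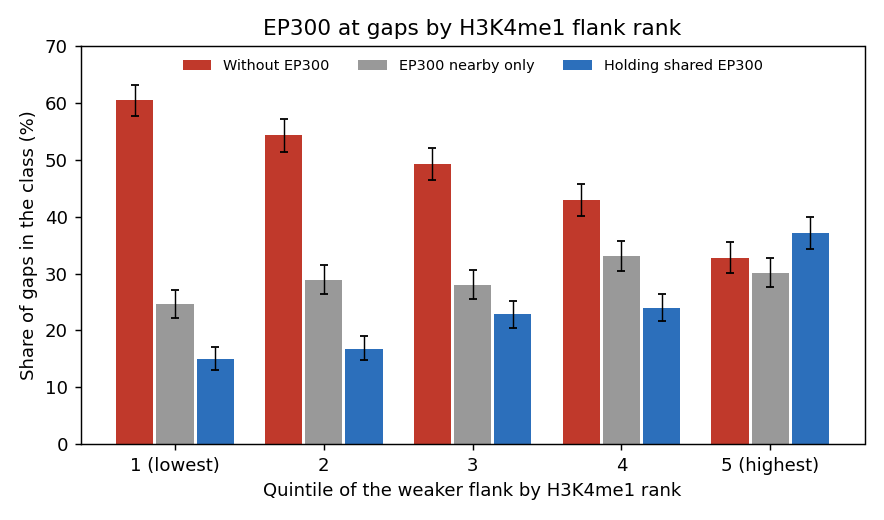
Share of qualifying gaps (y axis, percent, bars with exact 95% intervals) without EP300 (red), with EP300 nearby only (grey) and holding shared EP300 (blue), by quintile of the weaker flank's H3K4me1 rank (x axis). The share without EP300 was 60.5% in the lowest and 32.8% in the highest quintile.

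When all qualifying gaps were divided into quintiles by the rank of the weaker flank, the share without EP300 was 60.5%, 54.3%, 49.2%, 43.0% and 32.8% from the lowest to the highest quintile. Each quintile held 1231 or 1232 gaps. The share holding shared EP300 was 14.9%, 16.8%, 22.8%, 24.0% and 37.1%. In the highest quintile, in which the weaker flank was at percentile 84.3 or above, there were 404 gaps without EP300 and 457 holding it. Strong H3K4me1 on both sides thus did not come with EP300 throughout. Among the best 100 gaps by weaker flank, 19 had no EP300 within 1000 bp and 58 held shared EP300.

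Since EP300 chose the classes, the dependence on flank rank was also read in the list that had not been used. Of 3736 gaps without a replicate 1 peak within 1000 bp, 784 (21.0%, interval 19.7% to 22.3%) had a replicate 2 peak within 1000 bp, against 42.2% of all qualifying gaps. Of 3558 gaps without a replicate 2 peak, 606 (17.0%, interval 15.8% to 18.3%) had a replicate 1 peak, against 39.3% of all qualifying gaps. Over the whole lists, 42.9% of replicate 1 peaks and 34.8% of replicate 2 peaks overlapped a peak of the other list. Where the midpoint of a replicate 1 peak lay in the gap, 77.3% of 1763 gaps had a replicate 2 peak within 1000 bp, and in the other direction 74.1% of 1781 gaps did. Midpoints in the gap were less frequent: they were found in 12.4% of gaps empty in replicate 1, against 28.9% of all gaps in replicate 2, and in 11.2% of gaps empty in replicate 2, against 28.6% of all gaps in replicate 1. Most gaps empty in 1 list were thus empty in the other as well.

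**Figure D3:**
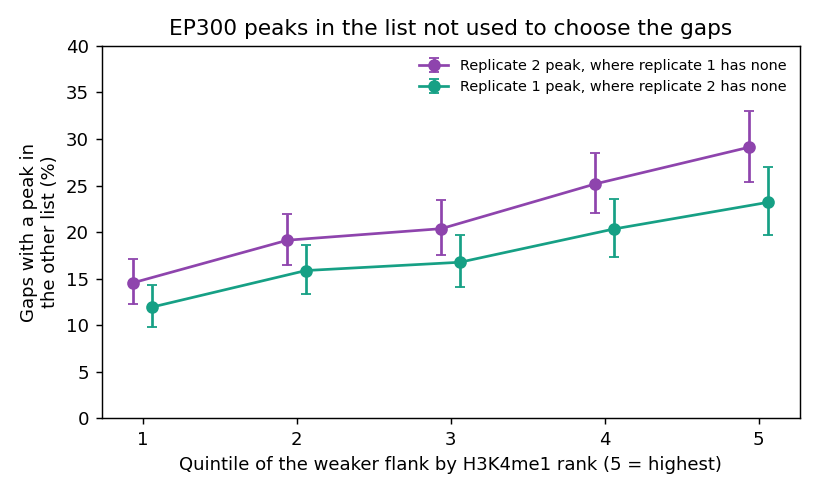
Share of gaps (y axis, percent, with exact 95% intervals) that had an EP300 peak within 1000 bp in the replicate list not used to choose them, by quintile of the weaker flank's H3K4me1 rank (x axis, 5 = highest). Among gaps empty in replicate 1 (purple) the share was 14.6% in the lowest and 29.1% in the highest quintile, and among gaps empty in replicate 2 (green) 11.9% and 23.2%.

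A peak in the other list was more frequent beside stronger flanks. Among gaps empty in replicate 1, replicate 2 had a peak at 14.6%, 19.1%, 20.4%, 25.2% and 29.1% from the lowest to the highest quintile of the weaker flank. Among gaps empty in replicate 2, replicate 1 had a peak at 11.9%, 15.9%, 16.8%, 20.3% and 23.2%. In each direction the intervals of the lowest and the highest quintile did not overlap. The weaker flank had a median percentile of 64.2 where neither list had a peak. It was 70.7 (interval 69.0 to 72.3) where replicate 2 alone had a peak and 69.8 (interval 67.8 to 72.3) where replicate 1 alone had one.

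The peaks that turned up in the other list were weaker than those at gaps with a peak in both lists. They were selected for lacking a called peak nearby in the first list, which by itself favours weaker peaks. The part of this selection in the difference was not tested. The replicate 2 peaks nearest to gaps empty in replicate 1 had a median fold enrichment of 5.45 (interval 5.31 to 5.59, n = 784) and 51 tags, against 7.39 (interval 7.22 to 7.62, n = 1816) and 78 tags where both lists had a peak. The replicate 1 peaks nearest to gaps empty in replicate 2 had 5.91-fold enrichment and 46 tags, against 7.90-fold and 71 tags. The median over all peaks was 43 tags in each list, so by tag count these peaks were not low within their own list. Their fold enrichment was not compared with that of the whole list. All of these are medians of the authors' values.

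Gaps without EP300 were narrower, although the rule ties the classes to width. A wider gap has more room for a midpoint and a longer stretch that must be empty. The part of the rule in the difference was not tested. Their median width was 500 bp (quartiles 400 and 713 bp, n = 2952), compared with 600 bp (quartiles 450 and 800 bp, n = 1424) for gaps holding EP300 and 550 bp for gaps with EP300 nearby. The regions start and end at steps of 50 bp, so the medians of the first 2 classes are 2 steps apart. The most frequent width without EP300 was 300 bp, the lowest that the rule allows, with 351 gaps, whereas for gaps holding EP300 it was 500 bp, with 144 gaps. Widths of 300 to 400 bp made up 35.0% (interval 33.3% to 36.8%) of gaps without EP300 and 17.5% (interval 15.5% to 19.6%) of gaps holding it.

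**Figure D4:**
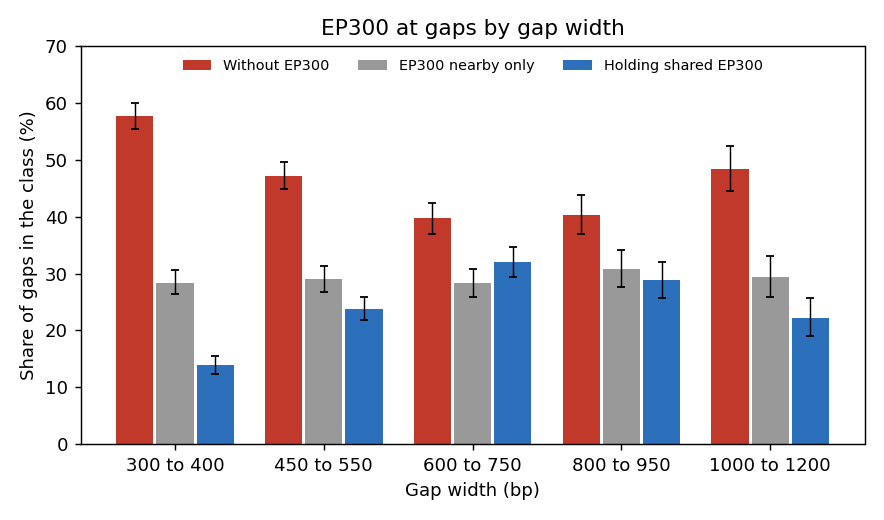
Share of qualifying gaps (y axis, percent, bars with exact 95% intervals) without EP300 (red), with EP300 nearby only (grey) and holding shared EP300 (blue), by gap width (x axis, bp). The share without EP300 was 39.7% at 600 to 750 bp, against 57.7% at 300 to 400 bp and 48.4% at 1000 to 1200 bp.

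The share without EP300 was lowest at intermediate widths. It was 57.7% at 300 to 400 bp, 47.2% at 450 to 550 bp, 39.7% (interval 37.0% to 42.4%) at 600 to 750 bp, 40.4% (interval 37.0% to 43.9%) at 800 to 950 bp and 48.4% (interval 44.5% to 52.4%) at 1000 to 1200 bp. Beyond the limits of the rule it was higher again, at 63.3% of 1996 gaps of 50 to 250 bp and 57.9% of 1241 gaps of 1250 to 2000 bp, each with flanks of 500 bp or more. At the lower edge no clear step was seen, with 58.5% (interval 54.0% to 62.9%) at 250 bp and 60.5% (interval 56.4% to 64.5%) at 300 bp. At the upper edge the share was 45.7% of 92 gaps at 1200 bp (interval 35.2% to 56.4%). It was 51.3% of 119 gaps at 1250 bp (interval 41.9% to 60.5%), and intervals this wide cannot tell whether there was a step. The shares are not corrected for the length of DNA searched, which is greater for wider gaps.

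The difference in width was present at each level of flank rank, where the rule ties the classes to width in the same way. The median width without EP300 was 500 bp in each of the 5 flank quintiles, while for gaps holding EP300 it was 650 bp in the lowest 3 quintiles, 600 bp in the fourth and 550 bp in the highest. The difference between the classes was smallest beside the strongest flanks. Beside flanks of the lowest 2 quintiles, the share without EP300 was 69.3% at 300 to 400 bp, 49.1% at 600 to 750 bp and 57.4% at 1000 to 1200 bp. In the highest quintile it was 38.5%, 22.1% and 36.6% at these widths, the last from 93 gaps with an interval of 26.8% to 47.2%.

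Width classes also differed in the list that had not been used. Among gaps empty in replicate 2, replicate 1 had a peak at 12.7% (interval 10.9% to 14.8%) of those of 300 to 400 bp and 20.8% (interval 17.7% to 24.1%) of those of 600 to 750 bp. Among gaps empty in replicate 1, replicate 2 had a peak at 18.8% (interval 16.7% to 21.0%) and 23.8% (interval 20.6% to 27.2%), whose intervals overlapped slightly. At 1000 to 1200 bp the shares were 16.7% and 18.7%. These shares are likewise not corrected for the length of DNA searched.

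The strongest point of the flanking H3K4me1 leaned towards the gap less clearly without EP300. Of the 5904 flanks of gaps without EP300, counted once for each gap, 48.6% (interval 47.4% to 49.9%) had the position of their maximum score nearer to the gap than the flank centre, and 44.5% had it farther away. Of the 2848 flanks of gaps holding EP300, 56.5% (interval 54.6% to 58.3%) had it nearer and 37.7% farther. The remainder had it at the centre. In flanks of 500 to 650 bp the shares nearer to the gap were 45.5% without EP300 and 47.2% with it, with overlapping intervals. In flanks of 700 to 1000 bp they were 50.2% (interval 47.9% to 52.5%) and 54.7% (interval 51.5% to 57.9%), and in flanks of 1050 bp or more they were 50.3% (interval 48.1% to 52.4%) and 61.6% (interval 58.9% to 64.2%). The share nearer to the gap was thus higher in longer flanks of gaps holding EP300.

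Gaps without EP300 lay somewhat farther from EP300 than gaps holding it lay from a further peak. Their nearest EP300 peak of either list lay a median of 14805 bp away (interval 13793 to 15893 bp, quartiles 4669 and 42809 bp, n = 2952). Since the rule keeps peaks beyond 1000 bp, the fitting measure for gaps holding EP300 is the nearest further peak beyond 1000 bp, and its median distance was 11793 bp (interval 10690 to 13082 bp, n = 1424). An EP300 peak lay within 10 kb of 41.6% (interval 39.8% to 43.4%) of gaps without EP300, against a further peak at 45.8% (interval 43.2% to 48.4%) of gaps holding it. A shared EP300 locus, the merged interval of overlapping peaks of both lists, lay within 50 kb of 46.8% (interval 45.0% to 48.6%) of gaps without EP300 and 51.5% (interval 48.9% to 54.2%) of gaps holding EP300, not counting loci within 1000 bp. The classes differed more at 20000 bp, where an EP300 peak lay within reach of 56.8% of gaps without EP300 and a further peak within reach of 62.9% of gaps holding it. They differed less within 100 kb, at 90.2% and 91.5%.

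Across the distance limit itself the number of gaps fell. The nearest peak lay 751 to 1000 bp away at 136 qualifying gaps, which the rule leaves out, and 1001 to 1250 bp away at 92 gaps, which it takes in. It lay 501 to 750 bp away at 169 gaps and 1251 to 1500 bp away at 94. Just inside the limit were a gap at chr3:86970750-86971599 with a 4.37-fold enriched replicate 2 peak at 1000 bp, and a gap at chr14:47968700-47969099 with a 10.4-fold replicate 1 peak at 994 bp. Just outside it were gaps at chr12:17225450-17226049, with a 9.68-fold replicate 2 peak at 1004 bp, and chr5:123884000-123884449, with a 5.30-fold replicate 1 peak at 1004 bp. Next to these came gaps at chr11:55235250-55236099 (1005 bp), chr17:73344700-73345299 (1007 bp) and chr6:88364050-88364349 (1009 bp). All coordinates refer to mm9.

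Most qualifying gaps of every class had further H3K4me1 nearby. The median number of other H3K4me1 regions within 5 kb was 1 for gaps without EP300, 2 with EP300 nearby and 1 for gaps holding it, and 25.3% (interval 23.7% to 26.9%) of gaps without EP300 had none, against 29.1% (interval 26.7% to 31.5%) of gaps holding it. With EP300 nearby only, 22.8% had none, and of all 6158 qualifying gaps 1568 had none. At the crowded end, 52.5% of the 200 qualifying gaps with 5 or more other regions within 5 kb lacked EP300 (interval 45.3% to 59.6%) and 16% held it (interval 11.2% to 21.8%). Among all qualifying gaps these shares were 47.9% and 23.1%. Among the 1568 gaps with no other region, 47.6% lacked EP300 and 26.4% (interval 24.2% to 28.7%) held it.

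Gaps without EP300 often neighboured one another. Of the gaps without EP300, 633 (21.4%) shared a flank with another gap without EP300. Seen from a gap without EP300 that shared a flank with any qualifying gap, the neighbour lacked EP300 in 73.6% of 932 cases. Seen from a gap holding EP300, it did so in 21.9% of 397 cases. Among all qualifying gaps, 47.9% lacked EP300. A pair of the same class is counted from either side here, so no interval is given. Of the 1035 pairs, 343 were both without EP300, 36 both held it and 87 had 1 gap of each kind. In another 238 pairs, a gap holding EP300 lay beside one with EP300 nearby only. Since only 23.1% of all qualifying gaps held shared EP300, these counts do not show whether such gaps neighboured one another unusually often or seldom. One EP300 peak can lie within 1000 bp of both gaps of a pair, and its part in these pairings was not tested. There were 244 runs of 2 neighbouring gaps without EP300, 39 runs of 3 and 7 runs of 4.

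Of the runs of 4, the first 5 by the rank of their best weaker flank spanned 6850 to 11700 bp, over which H3K4me1 dipped repeatedly with no EP300 called in or beside the dips. The first lay at chrX:149172450-149182649, with gaps of 300 to 800 bp, flanks ranked between 614 and 9951 of 59923, and the nearest EP300 peak 16649 bp away. Another lay at chr14:75264500-75274749, with gaps of 350 to 900 bp, a best flank at rank 968 and EP300 at 3365 bp. The run at chr11:22743500-22755199 was the longest of the 5 described here, at 11700 bp, and had EP300 no closer than 15913 bp. The run at chr4:141204050-141210899 spanned 6850 bp with EP300 at 4937 bp. The run at chr18:75540450-75550899 had its nearest EP300 peak at 1617 bp and included a flank at rank 46825.

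The strongest examples had flanks among the best of the whole list. First by its weaker flank was the gap of 450 bp at chr11:97672300-97672749, between a region of 5550 bp and one of 1650 bp, whose ranks were 181 and 21 of 59923. Their maximum log2 fold changes were 5.31 on the left and 5.70 on the right. The nearest EP300 peak, 9.45-fold enriched in replicate 2, lay 1715 bp away. The second, of 500 bp at chr2:166489900-166490399, lay between regions of 2600 bp and 4700 bp with log2 fold changes of 5.18 and 5.27, and its nearest EP300 peak (5.16-fold, replicate 1) was 2634 bp away. The third, of 650 bp at chr2:26350700-26351349, had flanks of 3400 bp and 4300 bp, with log2 fold changes of 5.24 and 5.28, and EP300 at 3916 bp.

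Of the best 10 gaps without EP300, 4 had an EP300 peak between 1000 and 2000 bp away, against 10.4% of all gaps without EP300. Apart from the first, these were at chr11:5693650-5694049 (11.0-fold at 1264 bp), chr9:102630550-102631349 (8.85-fold at 1156 bp) and chr7:86461650-86462049 (6.12-fold at 1468 bp). The others were farther from EP300. The gap at chr9:35138700-35139149, with flanks of 650 bp and 1000 bp and log2 fold changes of 4.93 and 5.40, had its nearest peak at 37128 bp. Gaps at chr2:32561400-32561899, chr5:114588250-114589449 and chr9:120912150-120912599 had theirs at 6955 bp, 6495 bp and 4388 bp. The gap on chromosome 5 was 1200 bp wide, the highest width allowed, and that at chr9:120912150-120912599 had 6 other H3K4me1 regions within 5 kb.

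The weaker flanks of the best 5 gaps without EP300 had ranks of 181 to 481, against 64 to 267 for the best 5 gaps holding shared EP300. The first of the gaps holding EP300, of 350 bp at chr1:137556050-137556399, had log2 fold changes of 5.39 and 5.73 in its flanks and a 10.2-fold replicate 1 peak. The gap of 400 bp at chr14:20963250-20963649 had log2 fold changes of 5.58 and 5.50 and held EP300 with 20.1-fold enrichment in replicate 1 and 10.0-fold in replicate 2. At the top of the list, flanks of a like log2 fold change were thus found around gaps of either kind.

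Gaps without EP300 made up the largest share on chromosome X. There 64 of 87 qualifying gaps (73.6%, interval 63.0% to 82.4%) lacked EP300 and 8 (9.20%, interval 4.05% to 17.3%) held it. On the autosomes together, 2885 of 6068 (47.5%, interval 46.3% to 48.8%) lacked it. Autosomal shares ran from 37.6% of 218 gaps on chromosome 18 (interval 31.2% to 44.4%) to 54.1% of 379 gaps on chromosome 7 (interval 48.9% to 59.2%).

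**Figure D5:**
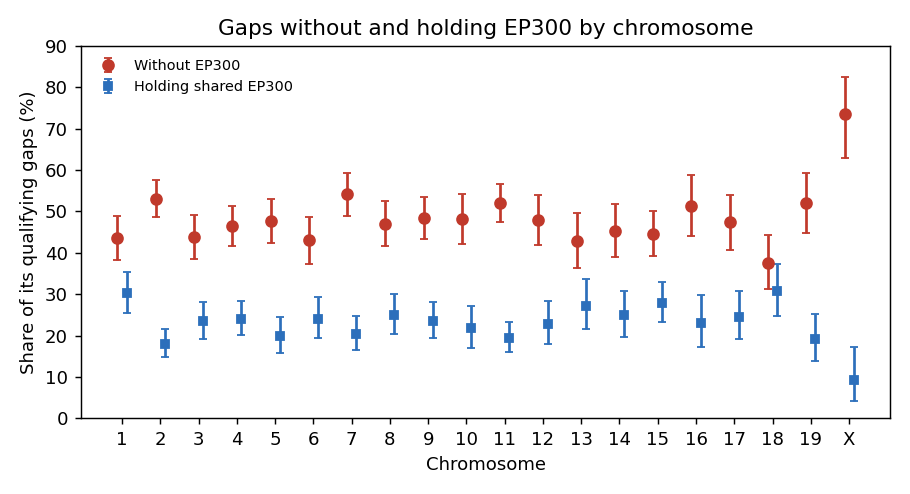
Share of the qualifying gaps of each chromosome (y axis, percent, with exact 95% intervals) without EP300 (red circles) and holding shared EP300 (blue squares). Chromosome X, with 87 gaps, stands above the autosomes at 73.6% without EP300 and below them at 9.20% holding it.

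EP300 peaks were few on chromosome X as a whole, with 52 in replicate 1 and 61 in replicate 2. Each autosome had 214 to 822 in replicate 1 and 287 to 991 in replicate 2. No EP300 peak lay within 1000 bp of 91.7% of the 1568 H3K4me1 regions of X, against 66.4% to 79.4% on the autosomes. The higher share without EP300 was thus not particular to the gaps of chromosome X. Qualifying gaps were also fewer there, at 5.55 per 100 H3K4me1 regions against 8.76 to 12.1 on the autosomes. The flanks of the X gaps did not rank lower, with a median weaker flank at percentile 69.0 (interval 64.9 to 72.7). In the lowest 4 quintiles of flank rank, 70% to 82.6% of X gaps lacked EP300, against 42.5% to 60.2% of autosomal gaps. These X shares rest on 14, 19, 23 and 20 gaps. In quintiles 1 and 2 the X intervals (49.2% to 95.3% and 54.4% to 93.9%) overlapped the autosomal ones. In the highest quintile it was 5 of 11 X gaps, or 45.5% (interval 16.7% to 76.6%), against 32.7% on the autosomes. With flanks of 800 bp or more, 8 of 20 X gaps lacked EP300 (40%, interval 19.1% to 63.9%), against 39.0% of all 2362 gaps with such flanks.

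Chromosome X also held the gaps farthest from EP300. The farthest, at chrX:34370000-34370549, lay 11022950 bp from the nearest peak, between flanks at ranks 39003 and 874 of 59923. Next came gaps at chrX:65748050-65748849 (1969075 bp), chrX:141925350-141926049 (1652824 bp) and chrX:159429250-159429749 (1068245 bp). These 4 were the only gaps without EP300 whose nearest peak was more than 1000 kb away. The fifth, at chr13:53812900-53813449, was 751240 bp from EP300.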

How the data were processed

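EP300 peaks were called by the authors with MACS 1.4.1 20110627 from every replicate and a control library of its own, at a p-value threshold of 1e-05 with a fragment size of 200 bp, per the file headers. Each peak has a deposited tag count, a significance score (10 times the -log10 p-value), a fold enrichment (ratio) over the local background, and its false discovery rate is a percent. The deposited H3K4me1 list gives for each region a score, a maximum log2 fold change, a -log10 p-value that stops at 100 and a false discovery rate as a p-value-like fraction. Its caller, the pooling of its 2 replicates and the aligner are not given in the sources used for this work. Coordinates are mm9, per the submitters' processing notes, and 1-based as deposited.

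Gaps were taken between neighbouring regions with Python 3.11.15, pandas 2.3.3 and scipy 1.17.1. A distance is the number of bases between a gap and a peak. A shared EP300 peak overlaps a peak of the other list by at least 1 bp. Percentile ranks come from the authors' rank, 100 being best. Shares have Clopper-Pearson intervals and medians order-statistic intervals, both at 95%, covering counting error only. Gaps on unplaced sequence (3, all without EP300) were kept. The functions were tested on simulated data. The classes, the measures and the rule for named gaps (the best 10 by weaker flank, the 5 farthest from EP300, the 5 on each side of the distance limit, the 5 longest runs and the best 5 holding EP300) were chosen with earlier results of these data known. The planned reading of gap sequences, motifs and gene start sites was not made, because no mm9 genome or annotation was used here.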

Additional observations from a re-analysis of the deposited data

How the results depend on the processing

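The weaker flank ranked lower, and the gap was narrower, in gaps without EP300 than in gaps holding it under all 12 alternatives tried, among them MACS summits or shared locus centres as the EP300 position. Each of these alternatives still ties the classes to gap width by construction. The share of qualifying gaps without EP300 moved with the definition. It was 57.8% to 60.7% when either EP300 list was left out, 57.9% with the upper 50% of each EP300 list, 45.3% with the upper 50% of H3K4me1 regions, and 52.9%, 42.9% and 35.1% when peaks within 500, 2000 and 5000 bp counted. It was 55.7% with flanks of at least 300 bp, 39.0% with at least 800 bp and 44.6% with gaps of 400 to 1000 bp. Leaving out chromosome X (47.6%) or 6 (48.2%), chosen after the data were seen, hardly changed it. The median percentile of the weaker flank without EP300 was 65.1 to 65.5 when a list was left out, 65.2 with the upper 50% of EP300 peaks, 70.4 with the upper 50% of regions (78.4 in gaps holding EP300), 63.0 at 5000 bp, 48.8 with flanks of 300 bp (69.4 holding) and 76.3 with 800 bp (83.9 holding). The median width without EP300 was 550 bp with gaps of 400 to 1000 bp. The share with a replicate 2 peak among gaps empty in replicate 1 was 16.2% in the upper 50% of the EP300 lists, 18.6% at 500 bp, 23.7% at 2000 bp, 17.6% and 26.1% with flanks of 300 and 800 bp, and 22.4% with gaps of 400 to 1000 bp. The converse share was 12.3%, 14.9%, 19.5%, 14.2%, 19.2% and 19.0% in the same order. On chromosome X, 82.8% of gaps lacked EP300 without EP300 replicate 1, 80.5% without replicate 2 and 40% with flanks of 800 bp, from 20 gaps. Each alternative takes in more or fewer peaks or gaps by construction, and the cause was not tested further. No paired analysis was possible because the 2 samples are different antibodies and no result comes from a test. How deeply H3K4me1 was sequenced is unknown.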
